A study of Mus musculus with 5 samples.

Results

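Atf4 and 9 enzymes of asparagine, serine and folate metabolism were examined in CD8+ T cells sorted from mouse tumors. The genes were taken by symbol (Atf4, Asns, Phgdh, Psat1, Psph, Shmt1, Shmt2, Mthfd1, Mthfd2 and Mthfd1l), 10 of 23337 genes listed, and all 10 were among the 11299 genes that passed a filter on low counts. The cells came from OT-I mice carrying CD45.1 on the C57BL/6J background, aged 6 to 12 weeks, whose transgenic T cell receptor recognises a peptide of ovalbumin. They were activated in culture through CD3 and CD28, expanded with interleukin-2 and transferred into mice with a B16-OVA tumor, a melanoma line that makes ovalbumin. One group of recipients received the PD-L1 blocking antibody 10F.9G2 and the other an irrelevant rat IgG2b against KLH, with 2 injections of 200 µg, given 3 and 6 days after the T cells. Recovery was on day 8, or earlier for tumors of 1.2 cm. Each library was made from RNA of 5000 to 30000 live CD8+ CD45.1+ cells pooled from several mice of a group, with 3 Control IgG and 2 anti-PD-L1 libraries. The cells of both groups had therefore been stimulated in culture before transfer, and no resting T cells were analysed here.

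ATF4 is the transcription factor of the integrated stress response. Its messenger RNA is translated more when the initiation factor eIF2 is phosphorylated, so that its protein can change without its transcript. Among its known targets are the gene for asparagine synthetase and several genes of serine and one-carbon metabolism. Serine is made from a glycolytic intermediate by PHGDH, PSAT1 and PSPH in turn. The serine hydroxymethyltransferases SHMT1, in the cytosol, and SHMT2, in mitochondria, then split serine into glycine and a one-carbon unit carried on folate. In mitochondria MTHFD2 oxidises that unit and MTHFD1L releases it as formate. MTHFD1 takes up formate in the cytosol, where it feeds the synthesis of purines and thymidylate. Activated T cells are known to switch on these enzymes before they divide.

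Library totals ran from 9985943 to 12830485 gene counts. The 2 libraries numbered 1, a control and a treated one, stood apart, with 11696 and 11977 genes detected against 13564 to 13801 in the other 3. Across genes, log2 values of these 2 libraries correlated at 0.907 to 0.936 with every library, against 0.973 to 0.977 among the other 3. The 7 listed markers of CD8+ T cells summed to 6949 to 7527 CPM in controls and 7608 to 8482 CPM after anti-PD-L1, where CPM is a gene's share of its library's gene counts on a fixed scale. Of the marker lists for other cells, the 8 melanoma genes summed to 6.94 to 370 CPM in controls and 48.8 to 125 CPM after anti-PD-L1. The 9 macrophage and monocyte genes summed to 95.1 to 222 and 93.5 to 149 CPM, and the 7 dendritic cell genes to 148 to 337 and 128 to 268 CPM. The 7 natural killer cell genes summed to 101 to 128 and 125 to 219 CPM. Klre1 made up most of that sum in every library, with 202 of 219 CPM in anti-PD-L1 replicate 1. Klra8 and Klra4 had 0 counts in every library. The 4 endothelial genes summed to 39.4 to 57.6 and 28.5 to 47.9 CPM, nearly all of it Pecam1, while Cdh5 and Kdr had 0 counts in every library. The 5 fibroblast genes summed to 0.300 to 1.69 and 0.0863 to 0.390 CPM, with Dcn and Col3a1 at 0 in every library. The part of other cells in the results below was not tested. In pooled cells, fewer cells that make a transcript and less of it per cell cannot be told apart.

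The genes of this group tended to lie lower after anti-PD-L1, most of all Shmt1, Asns and Shmt2, and none passed the test over all genes. Fold changes are anti-PD-L1 over Control IgG on the log2 scale, and CPM values of the 10 genes are scaled by TMM factors, which adjust library totals for differences in composition. Of the 10, 9 had a fold change below 0, against 51.9% of all tested genes, and Mthfd1l had one above 0. The median was -0.44, against -0.015 over all 11299 genes. For 5 genes, Asns, Shmt1, Shmt2, Mthfd1 and Mthfd2, both anti-PD-L1 libraries lay below every control, as they did for 9.57% of tested genes. The nearest values of the groups for Mthfd1, 131 and 135 CPM, were no further apart than counting error allows. For none of the 10 did both anti-PD-L1 libraries lie above every control, as they did for 7.73%. In edgeR's quasi-likelihood test 0 of the 10 passed an adjusted p of 0.05, as did 0% of the tested genes in either direction, and the adjusted p of each of the 10 was 0.9999. An unadjusted p under 0.05 was reached by 3 of them, all lower, where 107 of the tested genes, or 0.947%, were lower at that level. DESeq2 was run without the filter on low counts, on 15088 genes with a count. It called 4 of these higher, or 0.0265%, and 0 lower, none of them among these 10. On the 11299 filtered genes limma-voom called 0.

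**Figure D1:**
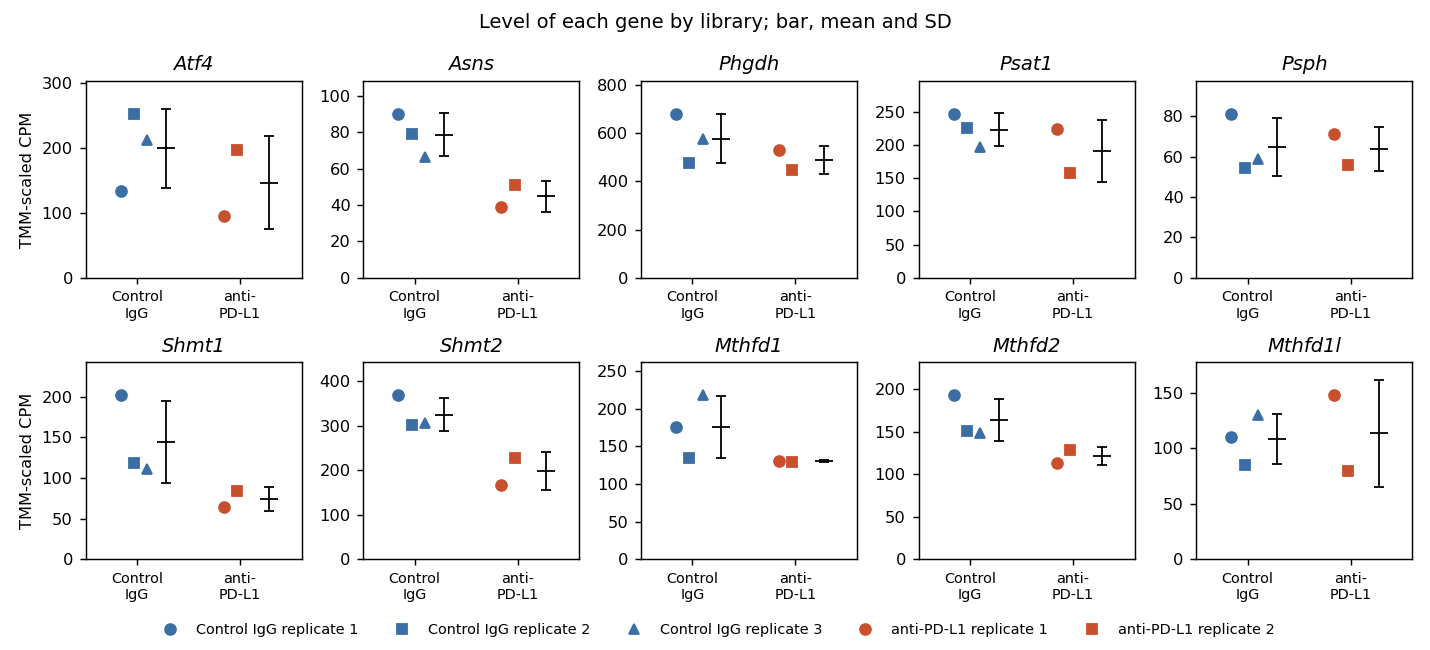
TMM-scaled CPM of each of the 10 genes (y axis, from 0) in the 3 Control IgG libraries (blue) and the 2 anti-PD-L1 libraries (red), with symbols for replicate 1 (circle), 2 (square) and 3 (triangle) and black bars for the mean and SD of each group. The red points lie below all blue points for Asns, Shmt1, Shmt2, Mthfd1 and Mthfd2, and overlap them for the other 5 genes.

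Summed over the 10 genes, the transcripts made up 0.206%, 0.202% and 0.214% of assigned counts in Control IgG replicates 1, 2 and 3, and 0.147% and 0.163% in anti-PD-L1 replicates 1 and 2. These shares are not scaled by TMM factors. With that scaling the sums were 2280, 1879 and 2021 CPM in the controls and 1581 and 1557 CPM after anti-PD-L1, so the controls lay further apart. Relative to the control mean, on the log2 scale, the median gene stood at -0.46 in the first anti-PD-L1 library and at -0.42 in the second. In the controls it lay at 0.20, -0.17 and -0.10. Both treated libraries thus had a similar median. Asns, Shmt1, Shmt2, Mthfd1 and Mthfd2 lay below every control in each, while some of the other genes differed between them. In replicate 1, 6 genes lay below every control and 1, Mthfd1l, above every control. In replicate 2, 8 genes lay below every control and 0 above. Of all tested genes, 30.6% lay below every control in replicate 1 and 26.3% above, and in replicate 2 these shares were 20.9% and 21.6%. Control IgG replicate 1 was the highest of the 5 libraries for 7 of the 10 genes, and for 28.2% of all tested genes. Without the 2 libraries numbered 1, the remaining anti-PD-L1 library lay below both remaining controls for 9 of the 10 genes, as it did for 31.7% of tested genes, and the median of the 10 was -0.43.

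**Figure D2:**
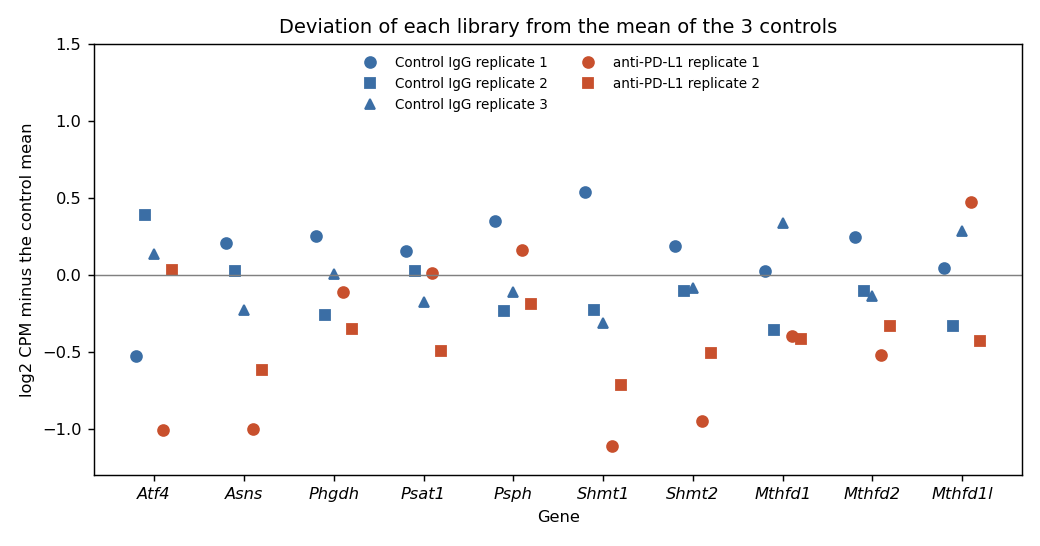
Log2 CPM minus the mean of the 3 controls (y axis) for each of the 10 genes (x axis), 1 symbol per library in the colours and shapes for group and replicate. Anti-PD-L1 replicate 1 (red circles) ranges from -1.11 for Shmt1 to 0.47 for Mthfd1l, and replicate 2 (red squares) from -0.71 for Shmt1 to 0.034 for Atf4.

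Levels can be compared between genes only per length, here as TMM-scaled CPM per kb of exon. Phgdh stood first, with a mean of 218 over the 5 libraries and a range of 179.9 to 274, and higher than 97.5% of tested genes with a known length. Shmt2 followed at 88.0, Atf4 at 75.5, Psat1 at 49.3, Mthfd2 at 42.1, Mthfd1 at 35.5, Shmt1 at 29.9, Mthfd1l at 24.9, Asns at 23.8 and Psph at 14.9. Only Phgdh was separated from its neighbour by more than the spread of the libraries, since the ranges of all other neighbours overlapped. Within each of the 5 libraries Psat1 was nonetheless above Mthfd2, and Mthfd2 was above Mthfd1 in 4. Psph, the lowest, was still above 72.0% of tested genes. The smallest count behind any value was 418, for Asns in anti-PD-L1 replicate 1, with an exact 95% Poisson interval of 379 to 460 that covers counting error only.

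**Figure D3:**
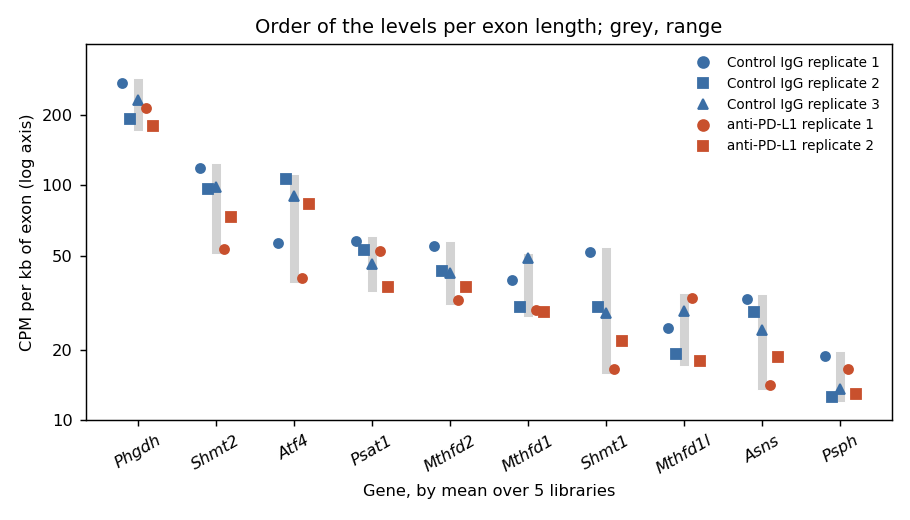
TMM-scaled CPM per kb of exon (y axis, log scale) of the 10 genes ordered by their mean over 5 libraries (x axis), with 1 symbol per library and a grey bar for the range. Phgdh lies at 179.9 to 274, clear of Shmt2 at 53.7 to 118, and the other ranges overlap their neighbours.

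Atf4 (chromosome 15, 80255184 to 80257541, plus strand, GRCm38) stood at 134, 252 and 212 CPM in Control IgG replicates 1, 2 and 3. After anti-PD-L1 it stood at 95.5 CPM in replicate 1 and 197 CPM in replicate 2. Only replicate 1 lay below the controls, and the lowest control was the library with the same number. The group means were 199 ± 60.3 CPM (SD, n = 3) and 146 ± 71.8 CPM (SD, n = 2), and the log2 fold change was -0.44 ± 0.39 (SE). It was -0.017 when anti-PD-L1 replicate 1 was left out, and -1.03 when replicate 2 was. Both libraries numbered 1 lay below the other 3, as they did for 23.7% of all tested genes, and Atf4 was the only one of the 10 with that order.

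Asns (chromosome 6, 7675169 to 7693254, minus strand) encodes asparagine synthetase, which makes asparagine from aspartate and glutamine. It stood at 90.0, 79.0 and 66.4 CPM in the controls, and at 38.7 and 50.7 CPM after anti-PD-L1. The treated libraries were the lowest 2 of the 5, and the gap between the groups, from 50.7 to 66.4 CPM, was narrower than the range of the controls. The means were 78.5 ± 11.8 CPM (SD, n = 3) and 44.7 ± 8.47 CPM (SD, n = 2), or 0.570 of the control level in the fit. The log2 fold change was -0.81 ± 0.27 (SE), with an unadjusted p of 0.0177 and an adjusted p of 0.9999 in edgeR. With any 1 library left out it ran from -0.99 to -0.63.

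The Asns promoter is shown because it held the only match to the C/EBP-ATF composite element, the sequence through which ATF4 is known to act on amino acid stress genes, among the promoter windows of the 10 genes. The element was searched as TGATGNAA on both strands, in windows from 250 bases before to 50 after each RefSeq start on GRCm38.p6. All 10 genes had a window, Psat1 a pair, and 1 of these 11 windows held it, against 3.97% of 32851 windows of all genes. The MYC-type E-box CACGTG was in 0 of the 11 windows and in 7.15% of all windows. The Shmt2 window, which holds neither, is set beside it because of all pairs among the 10 genes Asns and Shmt2 had the most similar pattern over the libraries. Both genes lie on the minus strand, the Asns window at chr6:7693160-7693459 and the Shmt2 window at chr10:127522395-127522694. Capitals mark the element, which begins at position -23 from the start. A match or its absence describes these letters only, and ATF4 binding was not measured here.
Asns: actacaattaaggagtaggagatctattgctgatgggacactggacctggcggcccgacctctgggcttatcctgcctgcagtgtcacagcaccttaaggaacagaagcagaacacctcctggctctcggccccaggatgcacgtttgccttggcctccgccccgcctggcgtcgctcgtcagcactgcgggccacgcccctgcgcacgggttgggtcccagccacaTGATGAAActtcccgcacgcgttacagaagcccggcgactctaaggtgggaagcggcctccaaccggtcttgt
Shmt2: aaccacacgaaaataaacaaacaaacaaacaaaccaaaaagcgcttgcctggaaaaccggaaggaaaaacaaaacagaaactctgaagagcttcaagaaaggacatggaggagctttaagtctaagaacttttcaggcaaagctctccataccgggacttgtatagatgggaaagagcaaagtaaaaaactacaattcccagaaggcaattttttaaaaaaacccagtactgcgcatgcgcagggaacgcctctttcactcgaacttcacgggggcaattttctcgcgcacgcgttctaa

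The 3 serine synthesis genes had fold changes no larger than their standard errors. Phgdh, the first enzyme of the pathway, stood at 681, 478 and 575 CPM in the controls and at 529 and 447 CPM after anti-PD-L1. Replicate 1 lay among the controls and replicate 2 below them, and the log2 fold change was -0.24 ± 0.26 (SE). For Phgdh it was -0.37 with anti-PD-L1 replicate 1 left out, -0.36 with Control IgG replicate 2 left out, -0.097 with anti-PD-L1 replicate 2 left out and -0.11 with Control IgG replicate 1 left out. Psat1, the aminotransferase of the middle step, stood at 247, 226 and 196 CPM in the controls and at 224 and 157 CPM after anti-PD-L1. Its order was the same, with replicate 1 among the controls, and its log2 fold change was -0.23 ± 0.26. Psph, the phosphatase of the last step, stood at 81.2, 54.2 and 58.9 CPM in the controls and at 71.4 and 55.9 CPM after anti-PD-L1. Both treated libraries lay within the controls, and the log2 fold change was -0.026 ± 0.28. The libraries numbered 1, at 81.2 and 71.4 CPM, lay above all the others, the reverse of their place for Atf4. Psph shares 10.4% of its exon length with Cct6a on the opposite strand, and reads there cannot be assigned to a strand in these libraries. With anti-PD-L1 replicate 2 left out, the fold changes of Psat1 and Psph were 0.035 and 0.17.

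Both serine hydroxymethyltransferase genes were among the lowest after anti-PD-L1. Shmt1 (chromosome 11, 60788104 to 60811718, minus strand) stood at 202, 118 and 112 CPM in the controls, and at 64.0 and 84.5 CPM after anti-PD-L1. The treated libraries lay below all controls, and Control IgG replicate 1 stood well above the other 2. The means were 144 ± 50.2 CPM (SD, n = 3) and 74.3 ± 14.5 CPM (SD, n = 2), or 0.516 of the control level in the fit. The log2 fold change was -0.95 ± 0.33 (SE) at an unadjusted p of 0.0204 in edgeR, lower than that of all but 4.02% of tested genes. It was -0.63 without Control IgG replicate 1, and -0.46, with 1 treated library left, without both libraries numbered 1. Shmt1 shares 4.74% of its exon length with Smcr8 on the opposite strand.

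Shmt2 (chromosome 10, 127517123 to 127522444, minus strand) stood at 368, 300.3 and 305 CPM in the controls, and at 167 and 227 CPM after anti-PD-L1. The controls lay close together and both treated libraries were clear of them. The means were 324 ± 37.7 CPM (SD, n = 3) and 197 ± 42.8 CPM (SD, n = 2), or 0.608 of the control level in the fit. The log2 fold change was -0.72 ± 0.26 (SE) at an unadjusted p of 0.0227 in edgeR, and -0.43 without both libraries numbered 1. The spread of the controls on the log2 scale, an SD of 0.16, was smaller than that of most genes, since 15.3% of tested genes had a smaller one.

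The mitochondrial and the cytosolic form lay lower together. The ratio of Shmt2 to Shmt1 per kb was 2.28, 3.17 and 3.41 in Control IgG replicates 1, 2 and 3, and 3.26 and 3.36 in anti-PD-L1 replicates 1 and 2. Shmt2 was the more abundant transcript in all 5 libraries, and the treated ratios lay within the range of the controls. On the log2 scale the ratio differed by 0.19 between the groups, at p = 0.7 in a two-sided exact permutation test over the 5 libraries, in which 10 arrangements allow no p below 0.1.

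Of the Mthfd genes, Mthfd2 and Mthfd1 had both treated libraries below every control, and Mthfd1l did not. Mthfd2 (chromosome 6, 83305691 to 83325908, minus strand), the mitochondrial enzyme that is low in most resting adult tissue, stood at 193, 151 and 148 CPM in the controls. After anti-PD-L1 it stood at 113 and 129 CPM, below all controls, with a log2 fold change of -0.44 ± 0.24 (SE). Mthfd1 (chromosome 12, 76255298 to 76319803, plus strand), the cytosolic trifunctional enzyme, stood at 175, 135 and 218 CPM in the controls and at 131 and 129 CPM after anti-PD-L1. The treated libraries lay side by side just under Control IgG replicate 2, and the log2 fold change was -0.44 ± 0.27. For Mthfd1 it was -0.25 without Control IgG replicate 3 and -0.24 with the replicate number as a block. The ratio of Mthfd2 to Mthfd1 per kb was 1.40, 1.42 and 0.865 in the controls and 1.10 and 1.27 after anti-PD-L1. The treated ratios lay inside the range of the controls, a log2 difference of -0.019 at p = 1 in the exact permutation test.

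Mthfd1l, the mitochondrial enzyme that releases formate, stood at 110.0, 84.7 and 129.9 CPM in the controls and at 148 and 79.2 CPM after anti-PD-L1. The treated libraries were the highest and the lowest of the 5. The log2 fold change was 0.068 ± 0.33 (SE), and it was -0.45 with anti-PD-L1 replicate 1 left out and 0.48 with replicate 2 left out.

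**Figure D4:**
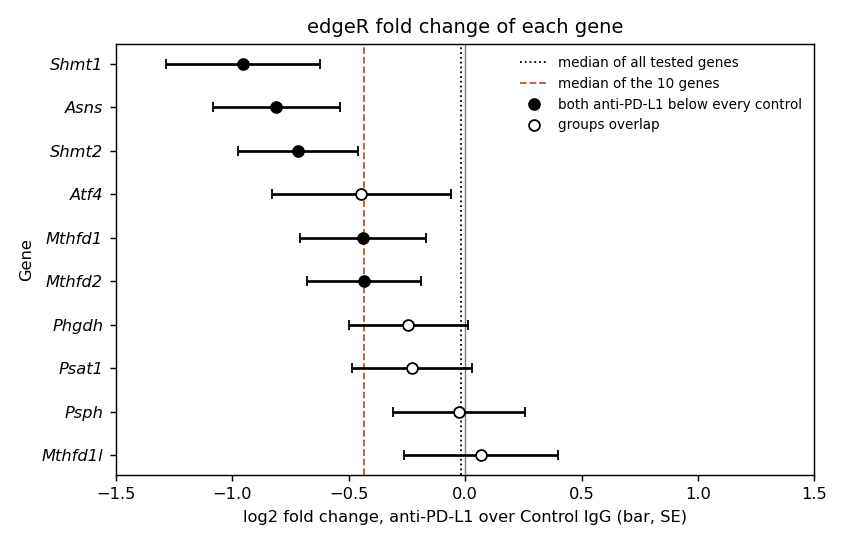
Log2 fold change, anti-PD-L1 over Control IgG, from edgeR (x axis, bars are SE) for each of the 10 genes (y axis), filled where both anti-PD-L1 libraries lie below every control. Values run from -0.95 for Shmt1 to 0.068 for Mthfd1l, with the median of the 10 genes at -0.44 (red dashes) and that of all tested genes at -0.015 (dots).

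Genes around these enzymes were followed in 5 lists. Among 28 other folate and one-carbon genes, 20 were tested, 13 lay below 0 and 7 above, with a median of -0.41, where 51.9% of all tested genes lay below 0 and their median was -0.015. Both anti-PD-L1 libraries lay below every control for 8 of the 20, against 9.57% of all tested genes, and above for 1, against 7.73%. In the adjusted test 0 passed. The 2 of smallest p were carriers. Sfxn1, the mitochondrial serine transporter, stood at 202, 163 and 152 CPM in the controls and at 118 and 115 CPM after treatment, and its log2 fold change was -0.56 ± 0.24 (SE). Slc19a1, the reduced folate carrier, stood at 97.9, 80.6 and 84.8 CPM in the controls and at 41.1 and 70.5 CPM, with -0.65 ± 0.30. Both carriers had the same order of groups as the Shmt genes. The median of this list lay at -0.09 in anti-PD-L1 replicate 1, within the controls at -0.15 to 0.22, and at -0.30 in replicate 2.

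Purine synthesis consumes the one-carbon units. All 13 of its genes were tested, 11 lay below 0 and 2 above, and the median was -0.39. The treated libraries were both below every control for 5 of the 13, against 9.57% of all tested genes, and above for 1, against 7.73%, and 0 passed. Impdh2, the rate-limiting enzyme of guanine nucleotide synthesis in dividing lymphocytes, stood at 625, 426 and 438 CPM in the controls. It stood at 283 and 344 CPM after anti-PD-L1, with a log2 fold change of -0.66 ± 0.27 (SE). The gene of smallest p, Adssl1, the muscle-type adenylosuccinate synthase, lay the other way, at 14.7, 22.9 and 21.7 CPM in the controls and 40.4 and 40.1 CPM after anti-PD-L1. Both treated libraries stood above every control, with a log2 fold change of 1.03 ± 0.31 and an adjusted p of 0.9999 in edgeR. The list's median lay at -0.29 and -0.40 in the treated libraries and at -0.20 to 0.29 in the controls.

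Other known ATF4 targets had a median below those of the controls in 1 of the 2 treated libraries. Of 30 listed, 24 were tested, 17 lay below 0 and 7 above, and the median was -0.16. Both treated libraries lay below every control for 6 of the 24, against 9.57% of all tested genes, and above for 1, against 7.73%, and 0 passed. In the first anti-PD-L1 library the median was -0.41 and in the second -0.0067, against -0.14 to 0.034 in the controls. Chac1, Nupr1, Vldlr, Slc7a11, Slc7a3 and Jdp2 were too low to test. The gene above every control was Ddit4, at 0.68 ± 0.35 (SE). Slc3a2 and Slc1a5, of the highest CPM in the list, had log2 fold changes of -0.053 ± 0.25 and -0.15 ± 0.31, and their groups overlapped. The 2 genes of smallest p, Slc1a4 and Cth, both had low counts. Slc1a4, a transporter of neutral amino acids that include serine, had 65, 43 and 44 counts in the controls and 6 and 12 counts after anti-PD-L1. That is 4.40 ± 1.26 CPM (SD, n = 3) against 0.725 ± 0.239 CPM (SD, n = 2), a log2 fold change of -2.58 ± 0.82 (SE) with an adjusted p of 0.9999 in edgeR. Cth, which makes cysteine from cystathionine, had 2, 14 and 12 counts in the controls and 0 in both treated libraries. Its mean was at least 3.20-fold lower after treatment, with the treated libraries set to a floor of 3 counts and the control mean taken as observed. Control IgG replicate 1, at 2 counts, was itself under that floor.

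Regulators of the integrated stress response included the eIF2 kinases, eIF2B subunits and phosphatase subunits. Of 15 tested, 6 lay above 0 and 9 below, where 51.9% of all tested genes lay below 0. Their median was -0.16 and 0 passed the test. Both treated libraries lay below every control for 3 of the 15 and above for 0, against 9.57% and 7.73% of all tested genes. Eif2b1, a subunit of the exchange factor eIF2B, stood at 132, 84.7 and 95.4 CPM in the controls and at 63.6 and 78.5 CPM after anti-PD-L1, with a log2 fold change of -0.55 ± 0.28 (SE). Eif2b5, another subunit, had -0.55 ± 0.37, and its treated libraries, at 118 and 70.2 CPM, lay on either side of the 2 lower controls at 104 and 111 CPM. Enzymes and synthetases of serine, glycine, aspartate and glutamine had 9 of 14 tested genes below 0, a median of -0.22 and 0 past the test. This list also held Aspscr1, which is no enzyme of these pathways, and without it 8 of 13 genes lay below 0 with a median of -0.25. Sars2, the mitochondrial seryl-tRNA synthetase, had -0.38 ± 0.28, and Got1, the cytosolic aspartate aminotransferase, -0.31 ± 0.29. Only Sars2 of these last 2 had both treated libraries below every control. Of the 14 tested genes of the list this held for 1, against 9.57% of all tested genes. Both lay above every control for 0 of the 14, against 7.73%.

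**Figure D5:**
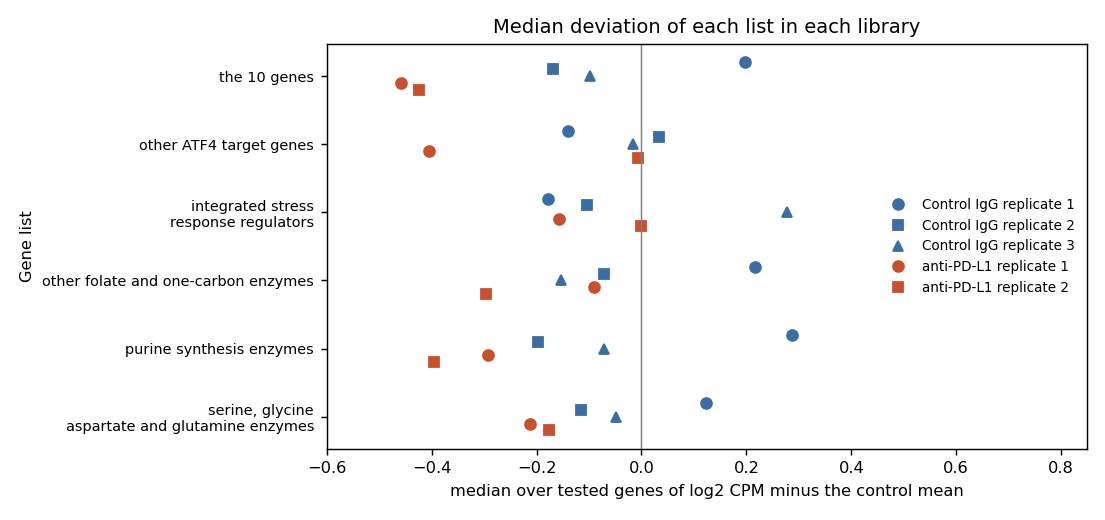
Median over tested genes of log2 CPM minus the control mean (x axis) for the 10 genes and for 5 related lists (y axis), 1 symbol per library. For the 10 genes both anti-PD-L1 libraries (red) lie at -0.46 and -0.42, left of all controls, while for other ATF4 targets only replicate 1, at -0.41, does.

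The genes most like 3 of the members were found by the root mean square distance between log2 CPM profiles, each centred on its mean over the 5 libraries, among 8139 other genes of sufficient level. The distance has no test, and genes share the same libraries. That the genes named here share a member's order over the libraries follows from how they were chosen. Nearest to Asns were Pet112l at 0.045, C1qbp at 0.055, Pecr at 0.063, Rrp9 at 0.073 and Ddx51 at 0.083, where the median gene lay at 0.523. C1qbp, a mitochondrial matrix protein, stood at 386, 315 and 288 CPM in the controls and at 169 and 226 CPM after anti-PD-L1. Nearest to Mthfd2 were Ruvbl1, a helicase subunit, at 0.033, Mrps9 at 0.033, Eef1d at 0.042, Uck2 at 0.045 and Ahsa1 at 0.051, with the median gene at 0.375. Ruvbl1 stood at 228, 183 and 175 CPM in the controls and at 130.5 and 158 CPM after anti-PD-L1.

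Nearest to Atf4 were Mapk11 at 0.066, Topbp1 at 0.067, Smarca4 at 0.070, Dph5 at 0.077 and Secisbp2 at 0.086, with the median gene at 0.596. Smarca4, the ATPase of a chromatin remodelling complex, stood at 109.7, 187 and 166 CPM in the controls and at 68.9 and 158 CPM after anti-PD-L1, low in the libraries numbered 1 as Atf4 was. Among the 10 genes themselves, the closest pairs were Asns and Shmt2 at 0.098, Phgdh and Psph at 0.133, and Shmt2 and Mthfd2 at 0.173. The nearest to Atf4 of the other 9 was Shmt2 at 0.458, so that no other member followed its pattern closely, and the most distant pair was Atf4 and Mthfd1l at 0.783.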

How the data were processed

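RNA of sorted tumor-infiltrating OT-I CD8+ T cells was sequenced by the authors after poly(A) selection, a modified Smart-seq2 amplification and tagmentation, per the labels. This chemistry marks neither strand nor molecule. The deposited values are raw read counts, whole numbers listed by gene symbol. TopHat, HTSeq and the build mm10 are named in the submitters' processing notes, and the sources used here do not give the annotation or the counting settings. The 5 counter lines of each file were left out. Reads without a feature were 7.46% to 15.2% of each file's counts.

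Differences were tested over all genes by edgeR 4.0.16 in R 4.3.3 (quasi-likelihood F-test, two-sided, TMM, filterByExpr with a minimum count of 10 and total of 15, Benjamini-Hochberg over 11299 genes, threshold 0.05). The standard error is the fold change divided by the square root of F. Alternatives used DESeq2 1.42.0, limma-voom 3.58.1 and other settings given in the closing section. Log2 CPM used a prior count of 2, and marker sums were divided by library totals only. Positions and exon lengths are from GENCODE vM21 (GRCm38, the assembly mm10 denotes), and promoter windows from RefSeq on GRCm38.p6. No 2 libraries were copies, with a chi-square per degree of freedom of 19.2 to 92.3.

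The members, lists and alternatives were chosen with earlier results of these data known. Named beside the 10 genes are the 2 genes of smallest p in each list and the 5 nearest to Atf4, Asns and Mthfd2 whose mean log2 CPM reached 3, passing over predicted genes. The labels do not say which mice went into which library, and the p-values therefore reflect only variation among pools, which may be technical.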

Additional observations from a re-analysis of the deposited data

How the results depend on the processing

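None of the 10 genes passed an adjusted p of 0.05 under any of 12 alternatives, in which the smallest adjusted p was 0.458 (edgeR, Shmt2, without anti-PD-L1 replicate 2, which leaves 1 treated library assumed to vary like the controls). Over all genes edgeR called 5 with no filter on low counts and 1 without both libraries numbered 1, DESeq2 called 4, and every other setting called 0. Of 120 recomputed fold changes of single genes, 6 changed sign. With 1 library left out, Psat1 ran from -0.51 to 0.035, Psph from -0.21 to 0.17 and Mthfd1l from -0.45 to 0.48. Without both libraries numbered 1, Mthfd1l was at -0.46. The median of the 10 genes ran from -0.46 with library totals only to -0.36 without Control IgG replicate 3. The log2 difference in the Mthfd2 to Mthfd1 ratio ran from -0.25 to 0.11 with 1 library left out and was 0.20 without both libraries numbered 1, and that in the Shmt2 to Shmt1 ratio ran from 0.0091 to 0.30. Counts by position were added after seeing the data. Genes of the 10 below every control numbered 5 with all libraries (9.57% of all tested genes), 6 with library totals only (10.8%) and 6 without any 1 control (13.7% to 17.1%). They numbered 6 without anti-PD-L1 replicate 2 (30.6%), 8 without replicate 1 (20.9%) and 9 without both libraries numbered 1 (31.7%), where fewer libraries make separation easier. Genes with a fold change below 0 numbered 7 to 10. For the other sign changes the cause was not tested. The replicate numbers share no stated source. Deviations from group means correlated at 0.33 for the libraries numbered 1 and 0.37 for those numbered 2, across genes. Control IgG replicate 3, which has no treated library of its number, correlated at 0.16 with anti-PD-L1 replicate 2. The deviations of the 2 treated libraries mirror each other, so these values are not independent. Whether the numbers mark a shared source was not tested. With the replicate number as a block, 0 genes passed and the median of the 10 was -0.38. Counting error is small beside the spread of 3 and 2 libraries, which limits the precision.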

Other observations

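The ratio of Mthfd1l, the mitochondrial formate-releasing enzyme, to its cytosolic counterpart Mthfd1 was chosen after the values were seen. Per kb it was 0.628, 0.629 and 0.597 in the 3 controls and 0.614 in anti-PD-L1 replicate 2, and 1.13 in anti-PD-L1 replicate 1. It was steady in 4 libraries and higher in the fifth, so the group difference of 0.43 on the log2 scale rested on 1 library (p = 0.3, two-sided exact permutation test, smallest possible p 0.1).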
